A study of Mus musculus with 6 samples.

Results

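The 40 genes described here encode ribosome biogenesis factors, the nucleolar proteins and RNA polymerase I components that make ribosomal RNA and assemble it into subunits. They were taken from a list of gene symbols named by function, drawn up with earlier results of these data known, and all 40 were found among the 17558 genes of the deposited expression table. By role, 5 belong to RNA polymerase I and its initiation factors, 3 to box C/D and 3 to H/ACA small nucleolar ribonucleoproteins (snoRNPs), 12 to the small subunit pathway, 11 to the large subunit pathway, and 6 are multifunctional nucleolar proteins. RNA was sequenced from C2C12, an immortalized mouse myoblast line, 48 h after the cells were moved from growth medium with fetal bovine serum to differentiation medium with 2% horse serum, insulin, transferrin and selenium. Every group carried a stably expressed short hairpin RNA. The control cells (shScr), whose genotype is labelled wild type, carried a scrambled hairpin that targets no gene, and the other 2 groups carried a hairpin against the Pkm1 (shPkm1) or the Pkm2 (shPkm2) splice isoform of pyruvate kinase. Each group had 2 libraries. Nothing in the labels says that these came from separate cultures or from separately derived lines, so p-values measure the spread between these libraries, which may be technical. The fit gives all groups a shared spread, although the shScr libraries differed from each other more than those of either hairpin group.

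Ribosome production starts in the nucleolus, where RNA polymerase I transcribes a long precursor that is folded, cut and chemically modified while ribosomal proteins bind it. Box C/D snoRNPs add methyl groups to the ribose, H/ACA snoRNPs convert uridine to pseudouridine, and large assemblies of processing factors release the small and the large subunit. Cells that divide keep this pathway active, and muscle precursors lower it as they leave the cell cycle and fuse into myotubes.

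Libraries held 18216896 to 19796036 estimated counts. The members had 237 to 22065 counts in a library, and all 40 passed the filter on low counts. Pkm, the targeted gene, stood at 3019 and 3473 CPM (counts scaled to the size of the library, here by trimmed means) in shScr, 1998 and 2186 in shPkm1, and 3658 and 3794 in the libraries labelled shPkm2. The shPkm1 libraries gave a log2 fold change of -0.63 against shScr (adjusted p 0.00107), and those labelled shPkm2 gave 0.20 (adjusted p 0.198). On TPM the former was -0.24 and not called (adjusted p 0.124), and the latter was called higher with library totals (0.52), on TPM (0.66), with a GC offset (0.42) and without replicate 2 of shScr (0.31). The Pkm1 transcript NM_001253883.1 was at 546 and 589 TPM in shScr, 243 and 218 in shPkm1, and 254 and 254 under the label shPkm2, or 33.3% and 27.6%, 15.6% and 13.5%, and 8.5% and 8.7% of Pkm counts. The Pkm2 isoform took 65.4% and 71.1% of Pkm counts in shScr, 82.2% and 85.6% in shPkm1, and 90.7% and 89.9% under the label shPkm2. In TPM it was at 1073 and 1517 in shScr, 1278 and 1379 in shPkm1, and 2700 and 2630 under the label shPkm2. The target named in that label was thus not lower. That group is therefore named by its label only, in every comparison that follows. Of 10 muscle markers, 9 were lower in each hairpin group than in shScr and Myf5, a marker of undifferentiated myoblasts, was the exception. Their summed level was 29195 to 40755 CPM in shScr, 11809 to 13540 in shPkm1 and 1716 to 1773 in shPkm2. The summed level of 10 proliferation markers ran the other way, at 433 to 502, 846 to 855 and 2235 to 2366 CPM. The defining markers of epithelium (Epcam) and glia (Sox10) were at 0 in every library, while the fibroblast-associated receptor gene Pdgfra was at 5.13 and 7.23 CPM in shScr, 29.9 and 31.3 in shPkm1 and 34.6 and 33.8 in shPkm2. Dpt, of the same fibroblast list, was at 0.824 and 0.226, 5.43 and 4.50, and 0.141 and 0.191 CPM, and Lum was not tested. The keratin gene Krt14 was at 1.58 and 2.82, 20.8 and 26.5, and 4.80 and 4.96 CPM in the same order, and the part of such genes in the results was not tested.

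Against this background the members were split. In shPkm1, 6 of 40 were higher and 15 lower than in shScr (15% and 37.5%). Over all 12643 tested genes 31.8% were called higher and 31.4% lower in that comparison (edgeR quasi-likelihood test, Benjamini-Hochberg adjusted p under 0.05). In shPkm2, 11 members were higher and 13 lower than in shScr (27.5% and 32.5%), where all tested genes gave 33.9% and 34.2%. The share of higher members thus lay below that of all genes in shPkm1, and both shares lay near those of all genes in shPkm2. Between the hairpin groups, 14 members were higher in shPkm2 than in shPkm1 and 3 lower (35.0% and 7.5%), with 25.7% and 27.3% over all tested genes. The median log2 fold change of the members was -0.20 in shPkm1 against shScr, -0.01 in shPkm2 against shScr and 0.18 in shPkm2 against shPkm1, and the median of all tested genes was within 0.01 of 0 in each. Leaving out replicate 2 of shPkm1 left fewer members higher in shPkm1, and fewer of all tested genes. Between the hairpin groups, fewer members and fewer of all tested genes were higher when any of the 4 hairpin libraries was left out. Without either control library, more of both were lower. The 3 comparisons share libraries and are not independent of each other.

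**Figure D1:**
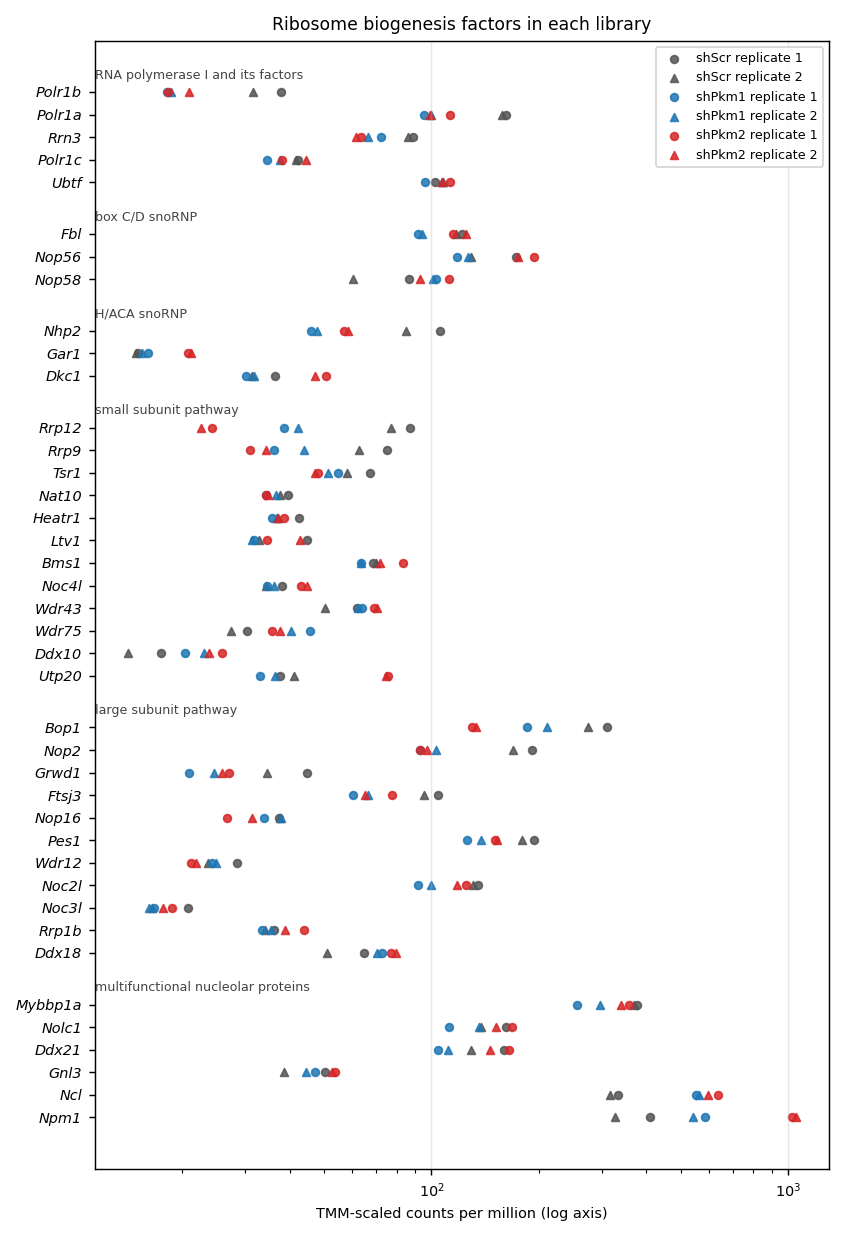
Levels of the 40 members in each of the 6 libraries, as scaled counts (CPM) on a log axis, grouped by role; circles are replicate 1 and triangles replicate 2 of shScr (grey), shPkm1 (blue) and shPkm2 (red). Npm1 stands at 1025 and 1053 in shPkm2 against 410 and 327 in shScr, while Rrp12 stands at 24.3 and 22.6 against 87.3 and 76.9.

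The sign and number of these calls moved with the scaling, which shifts all genes. With library totals in place of the trimmed-mean factors, the tested genes moved up by a median of 0.19 in shPkm1 and 0.32 in shPkm2 (log2), and the members were then 7 higher and 11 lower in shPkm1 and 22 higher and 7 lower in shPkm2. All tested genes then gave 40.5% and 21% in shPkm1 and 48.2% and 21.4% in shPkm2. On the authors' TPM values (abundance scaled to transcript length and library), the same medians were 0.37 and 0.44, and the members were 13 higher and 7 lower in shPkm1 and 25 higher and 6 lower in shPkm2. All tested genes gave 49% and 13.7%, and 52.4% and 16.8%, on that scale. The median of the members was 0.18 and 0.44 there and that of all tested genes 0.31 and 0.36, so that in shPkm1 the members stood below all genes on TPM as with trimmed means. Among all genes called, 50.3% were higher in shPkm1 with trimmed means, 65.8% with library totals and 78.1% on TPM. The same shares in shPkm2 against shScr were 49.8%, 69.3% and 75.7%. Some member calls held in all 5 fits with another scaling or a correction for GC content. These were 2 higher (Ddx18, Ncl) and 7 lower (Grwd1, Nhp2, Nop2, Polr1a, Polr1b, Rrp12, Rrp9) in shPkm1 against shScr. In shPkm2 against shScr they were 6 higher (Ddx18, Gar1, Ncl, Noc4l, Npm1, Utp20) and 6 lower (Bop1, Nhp2, Nop2, Polr1b, Rrp12, Rrp9). Their sizes moved with the fit: in shPkm2 against shScr, over all 16 other fits, Rrp12 ran from -1.90 to -1.27, Rrp9 from -1.20 to -0.61, Bop1 from -1.23 to -0.69, Nop2 from -1.01 to -0.46, Polr1b from -0.95 to -0.34 and Nhp2 from -0.87 to -0.26. The rises ran from 0.77 to 1.97 for Npm1, 0.66 to 1.38 for Utp20 and 0.63 to 1.38 for Ncl.

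**Figure D2:**
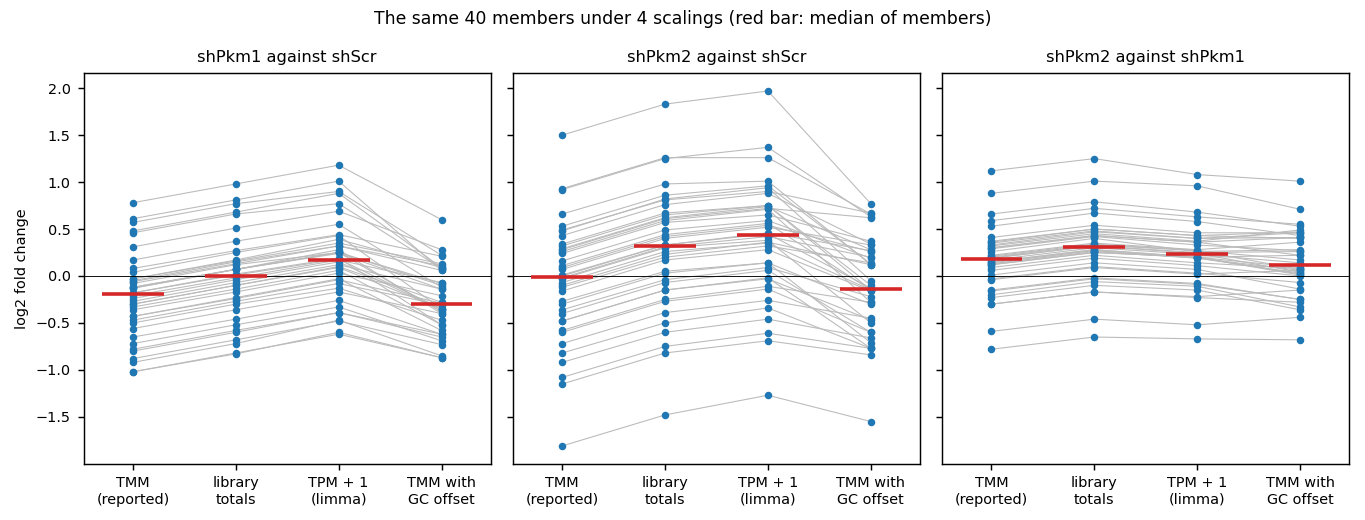
Log2 fold changes of the same 40 members under 4 fits, with 1 panel per comparison, grey lines joining a gene's values and a red bar at the median of the members. In shPkm2 against shScr the median runs from -0.01 with trimmed means to 0.32 with library totals, 0.44 on TPM and -0.14 with a GC offset, and Rrp12, the lowest point, lies under -1 in each of them.

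Many genes of this pathway are known targets of MYC, which binds the E-box CACGTG. Myc itself was at 39.0 and 33 CPM in shScr, 49.2 and 56.5 in shPkm1, and 48.2 and 44.7 in shPkm2, a rise of 0.55 (SE 0.116, adjusted p 0.00105) and 0.37 (SE 0.116, adjusted p 0.013). The latter was 0.25 (adjusted p 0.0569) without replicate 2 of shScr and 0.32 (adjusted p 0.0935) without replicate 1 of shPkm2. Mycl, a relative of Myc, fell from 52.8 and 62.5 CPM to 38.5 and 41.1 in shPkm1 and 25.2 and 28.2 in shPkm2 (-0.53, adjusted p 0.0011, and -1.11, adjusted p 2e-06), and on TPM the former was -0.12 (adjusted p 0.499). RefSeq promoter windows, from 250 bases before to 50 after each transcript start in GRCm38.p6, were given for 36 members, with none for Fbl, Npm1, Bop1 and Rrp12. The palindrome CACGTG lay in the windows of 9 members (25.0%), of 11.6% of 10043 tested genes and of 8.09% of all 27025 genes with a window. The looser pattern CANNTG, which contains it, lay in 66.7% of members and 67.0% of tested genes, and median window GC content was 60.2% and 60.7%. The 9 members held 10 copies of CACGTG, and 7 of these began after the start, at positions 3 to 41, against 13.6% of 1411 copies in tested genes.

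The sequences around all 10 copies are printed so that members with the same motif and unlike changes can be read side by side: 5 were lower in shPkm1 than in shScr (Grwd1, Mybbp1a, Nop2, Pes1, Rrn3), Tsr1 was lower in shPkm2, Utp20 and Wdr43 were higher in shPkm2, and Ltv1 was not called. Rrn3 holds 2 copies. Each reads 5′ to 3′ on the strand of its gene with the motif in capitals. They lie in GRCm38.p6 at chr7:45830740-45830767 (minus strand) for Grwd1, chr10:13193092-13193121 (minus) for Ltv1, chr11:72441355-72441376 (plus) for Mybbp1a, chr6:125131811-125131840 (plus) for Nop2, chr11:3963965-3963994 (plus) for Pes1, chr16:13780472-13780501 and chr16:13780639-13780668 (plus) for Rrn3, chr11:74898092-74898121 (plus) for Tsr1, chr10:88826765-88826789 (minus) for Utp20 and chr17:71616220-71616249 (plus) for Wdr43. The motifs of Nop2 and Rrn3 lie inside the window and upstream of its transcript start, and the others lie after that start. For Grwd1 and Wdr43 that start lies inside the annotated gene, downstream of its outermost start.
Grwd1: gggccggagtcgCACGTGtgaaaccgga
Ltv1: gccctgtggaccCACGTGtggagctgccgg
Mybbp1a: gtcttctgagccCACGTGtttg
Nop2: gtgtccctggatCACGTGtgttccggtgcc
Pes1: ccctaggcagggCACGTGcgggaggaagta
Rrn3, upstream copy: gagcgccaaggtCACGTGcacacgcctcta
Rrn3, copy nearer the start: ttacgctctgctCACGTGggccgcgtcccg
Tsr1: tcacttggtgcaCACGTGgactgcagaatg
Utp20: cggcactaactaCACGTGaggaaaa
Wdr43: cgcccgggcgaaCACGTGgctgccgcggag
Of the 9 members with the motif, 0 were higher and 5 lower in shPkm1, and 2 were higher and 5 lower in shPkm2 (medians -0.33 and -0.30). Of the 27 with a window and no motif, 5 were higher and 7 lower, and 8 higher and 6 lower (medians -0.12 and 0.09). Of 1169 tested genes with the motif 27.4% were higher and 34.0% lower in shPkm1 and 32.2% and 35.2% in shPkm2, and of 8874 without it 32.1% and 31.1%, and 34.2% and 34.0%. A match is a run of letters in this window and says nothing on binding, and whether the motif bears on the changes was not tested.

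RNA polymerase I transcribes the ribosomal RNA genes, and 3 of its 5 listed genes were lower in both hairpin groups than in shScr (31.4% and 34.2% of all tested genes were lower), with no call between the hairpin groups. Polr1a (chr6:71909053-71979435 in the RefSeq annotation of GRCm38.p6, as are the other gene positions), the largest subunit, was at 162 and 158 CPM in shScr, 95.2 and 99.6 in shPkm1, and 113 and 99.0 in shPkm2. Both hairpin groups lay below both control libraries and overlapped each other. The log2 fold changes were -0.72 (SE 0.0999, adjusted p 3.99e-05) and -0.60 (SE 0.0995, adjusted p 0.000135), and the latter was not called on TPM (-0.14, adjusted p 0.340). Polr1b, the second-largest subunit, was at 37.8 and 31.6 CPM in shScr, 18.1 and 18.6 in shPkm1, and 18.3 and 20.9 in shPkm2. It fell in shPkm1 (-0.92, SE 0.124, adjusted p 2.96e-05) as well as in shPkm2 (-0.82, SE 0.122, adjusted p 4.96e-05), with the hairpin groups at the same low level. Rrn3, the factor that makes the polymerase competent to start, was at 88.9 and 85.7 CPM in shScr, 72.3 and 66.3 in shPkm1, and 63.6 and 61.6 in shPkm2. Its falls of -0.33 (adjusted p 0.00837) and -0.48 (adjusted p 0.000593) depended on the scaling: on TPM the values were 0.06 and -0.02, with library totals -0.14 (adjusted p 0.270) and -0.15 (adjusted p 0.201), and without replicate 2 of shPkm1 the former was -0.27 (adjusted p 0.0993).

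Ubtf, the factor that binds along active ribosomal genes, did not pass the reported test in any comparison. It was at 102 and 108 CPM in shScr, 95.7 and 107 in shPkm1, and 113 and 107 in shPkm2, with a 95% interval of -0.24 to 0.15 for its log2 fold change in shPkm1 and -0.12 to 0.27 in shPkm2. On TPM it was called higher than shScr in both, at 0.32 (adjusted p 0.0361) and 0.52 (adjusted p 0.00209), and with library totals and with a GC offset in shPkm2 (0.40, adjusted p 0.00494, and 0.33, adjusted p 0.00587). Polr1c, a subunit shared with RNA polymerase III, was at 42.2 and 41.6, 34.6 and 37.7, and 38.0 and 44.6 CPM in the 3 groups and was not called in the reported fit. With library totals and on TPM it was called higher in shPkm2 than in shScr (0.31, adjusted p 0.0273, and 0.42, adjusted p 0.00473). Within this role the enzyme's 2 large subunits were lower than in shScr and the DNA-binding factor was not.

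Box C/D snoRNPs hold the methyltransferase fibrillarin (Fbl) on a scaffold of Nop56 and Nop58, and the 3 genes were not called alike in the reported fit. With library totals and on TPM all 3 were called higher in shPkm2 than in shScr (Nop58 at 0.82 and 0.94). Fbl was at 122 and 117 CPM in shScr, 91.7 and 94.0 in shPkm1, and 115 and 125 in shPkm2. It fell in shPkm1 relative to shScr (-0.36, SE 0.0958, adjusted p 0.00513) and was higher in shPkm2 than in shPkm1 (0.37, SE 0.0954, adjusted p 0.00554). Neither held in every fit: the fall turned to 0.03 on TPM and was -0.17 (adjusted p 0.165) with library totals and -0.21 (adjusted p 0.0616) with a GC offset, and without replicate 1 of shPkm1 the values were -0.33 (adjusted p 0.0601) and 0.34 (adjusted p 0.0610). The latter was also not called without replicate 2 of shPkm2 (0.30, adjusted p 0.0881). Against shScr, shPkm2 gave 0.01 in the reported fit and was called higher with library totals (0.33, adjusted p 0.0089), on TPM (0.46, adjusted p 0.00114) and with a GC offset (0.27, adjusted p 0.0188). Nop56 was at 173 and 129 CPM in shScr, 118 and 127 in shPkm1, and 194 and 175 in shPkm2, so that the 2 control libraries spanned the range between the hairpin groups. In the reported fit it differed only between the hairpin groups (0.59, SE 0.130, adjusted p 0.00187), a call that held in all 16 other fits. Against shScr, shPkm2 gave 0.29 (adjusted p 0.0642), and it was called with library totals (0.62, adjusted p 0.000448), on TPM (0.74, adjusted p 0.00013) and with a replicate block (0.29, adjusted p 0.0498). Leaving out replicate 1 of shScr gave 0.52 in shPkm2 (adjusted p 3.79e-05), and leaving out replicate 2 of shScr gave -0.50 in shPkm1 (adjusted p 5.06e-05). Nop58 was at 86.3 and 60.2 CPM in shScr, 103 and 101 in shPkm1, and 112 and 92.7 in shPkm2. It rose by 0.48 in each hairpin group (adjusted p 0.0125 and 0.01). With a GC offset these were 0.09 and -0.05 and not called. The shPkm1 value was 0.24 (adjusted p 0.0595) without the low control library, replicate 2, and 0.48 to 0.50 without either shPkm1 library (adjusted p 0.0729 and 0.0586), and the shPkm2 value was 0.35 (adjusted p 0.109) without replicate 1 of shPkm2.

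H/ACA snoRNPs carry the pseudouridine synthase dyskerin (Dkc1) with the small proteins Gar1 and Nhp2, and here the enzyme and Nhp2 went opposite ways in shPkm2. Dkc1 was at 36.4 and 31.3 CPM in shScr, 30.2 and 31.7 in shPkm1, and 50.6 and 47.1 in shPkm2. In the reported fit only shPkm2 stood apart, by 0.53 over shScr (SE 0.109, adjusted p 0.000705) and by 0.66 over shPkm1 (SE 0.108, adjusted p 0.000189), and with a GC offset the former was 0.13 and not called (adjusted p 0.271). In that fit shPkm1 was instead called lower than shScr (-0.40, adjusted p 0.0056). Gar1 was at 15 and 14.8, 16 and 15.4, and 20.7 and 21.1 CPM, highest in shPkm2, with 0.49 over shScr (SE 0.115, adjusted p 0.00208), and on TPM shPkm1 was called higher than shScr too (0.44, adjusted p 0.00785). Nhp2 (chr11:51619773-51623718) was at 106 and 84.8 CPM in shScr, 45.8 and 47.8 in shPkm1, and 57.0 and 58.4 in shPkm2. Its falls of -1.02 (SE 0.113, adjusted p 5.1e-06) and -0.72 (SE 0.112, adjusted p 7.07e-05) were called in all 16 other fits. All 3 genes were higher in shPkm2 than in shPkm1, as were 25.7% of all tested genes. For Nhp2 that difference was small (0.30, adjusted p 0.0385) and not called in DESeq2 (adjusted p 0.0604) or when any of the 4 hairpin libraries was left out (adjusted p 0.117 to 0.203), and for Gar1 (0.41, adjusted p 0.00797) it was not called without replicate 2 of shPkm1 (adjusted p 0.0605) or without either shPkm2 library (0.0520 and 0.0674).

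The multifunctional nucleolar proteins included Npm1 and Ncl, which were higher than in shScr in both hairpin groups. Npm1 (chr11:33152498-33164142) encodes nucleophosmin, a histone chaperone and scaffold of the nucleolus. It was at 410 and 327 CPM in shScr, 585 and 540 in shPkm1, and 1025 and 1053 in shPkm2. The groups did not overlap and stood in that order. Npm1 was 1.53-fold higher in shPkm1 (log2 0.61, SE 0.125, adjusted p 0.000853), 2.82-fold higher in shPkm2 (1.5, SE 0.127, adjusted p 2.55e-07) and 1.85-fold higher in shPkm2 than in shPkm1 (0.88, SE 0.125, adjusted p 5.21e-05). With a GC offset the rise in shPkm1 was 0.06 and not called (adjusted p 0.661), and that in shPkm2 was 0.77 and still called. Of its 3 transcript models NM_001252261.1 took 25.7% to 26.0% of Npm1 counts in shScr, 24.9% to 26.3% in shPkm1 and 32.1% to 32.9% in shPkm2, and NM_008722.3 took nearly all the rest. Npm1 has processed copies elsewhere in the mouse genome, and its level depends on how reads shared with them were counted.

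Ncl (chr1:86344719-86359455) encodes nucleolin, which binds ribosomal genes and their early transcripts. It was at 334 and 317 CPM in shScr, 553 and 564 in shPkm1, and 635 and 595 in shPkm2. Both hairpin groups stood above shScr, by 1.72-fold (log2 0.78, SE 0.104, adjusted p 2.8e-05) and 1.89-fold (0.92, SE 0.105, adjusted p 4.43e-06), and these calls held in all 16 other fits. Between the hairpin groups Ncl gave 0.14 (adjusted p 0.276). Ddx21, an RNA helicase that acts on polymerase I transcription, was at 160 and 129 CPM in shScr, 104 and 111 in shPkm1, and 165 and 146 in shPkm2. In the reported fit it was low in shPkm1 alone, at -0.43 against shScr (adjusted p 0.00655) and with 0.53 between shPkm2 and shPkm1 (SE 0.117, adjusted p 0.0018). The fall against shScr was not called on TPM (-0.03), with library totals (-0.23, adjusted p 0.0954) or without replicate 1 of shPkm1 (-0.37, adjusted p 0.0829). In shPkm2 it was called higher than in shScr with library totals (0.44, adjusted p 0.00321), on TPM (0.56, adjusted p 0.00116) and without replicate 1 of shScr (0.27, adjusted p 0.0232). Mybbp1a, a nucleolar repressor that also binds transcription factors, had the same pattern in the reported fit, with 377 and 369, 256 and 297, and 357 and 340 CPM. Its fall of -0.43 (adjusted p 0.00331) was not called on TPM (-0.04), with library totals (-0.24, adjusted p 0.0662) or without replicate 1 of shPkm1 (-0.31, adjusted p 0.0797), and its difference between hairpin groups of 0.33 (adjusted p 0.0178) was not called without that library (0.22) or without either shPkm2 library (0.29 and 0.36). On TPM shPkm2 was called higher than shScr (0.36, adjusted p 0.00995). Nolc1, a chaperone of snoRNPs, was at 162 and 138, 112 and 136, and 168 and 152 CPM and in the reported fit was called only between the hairpin groups (0.36, adjusted p 0.0195). That call was absent without replicate 1 of shPkm1 (0.22, adjusted p 0.241) or of shPkm2 (0.28, adjusted p 0.167). Against shScr, shPkm2 gave 0.09, and was called higher with library totals (0.42, adjusted p 0.0045) and on TPM (0.54, adjusted p 0.0012), while shPkm1 was called lower without replicate 2 of shPkm1 (-0.41, adjusted p 0.0393) or of shScr (-0.38, adjusted p 0.00233). Gnl3, which encodes the stem-cell protein nucleostemin, was at 50.3 and 38.6, 47.2 and 44.4, and 53.5 and 52.7 CPM and was not called in the reported fit. Its sign in shPkm2 against shScr turned with the fit, from 0.26 (adjusted p 0.0747) to 0.59 with library totals (adjusted p 0.000537), 0.71 on TPM (adjusted p 0.000206), 0.27 with a replicate block (adjusted p 0.0493), 0.46 without replicate 1 of shScr (adjusted p 0.000398) and -0.28 with a GC offset (adjusted p 0.0369). In shPkm1 it gave 0.04 in the reported fit, 0.43 on TPM (adjusted p 0.00711) and -0.35 with a GC offset (adjusted p 0.0151), and between the hairpin groups 0.34 with library totals (adjusted p 0.0231).

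The small subunit pathway held genes that moved far in either direction, among them Rrp12, with the largest fall in shPkm2 against shScr, and Utp20. Rrp12 (chr19:41859483-41896153), an export and maturation factor of pre-ribosomes, was at 87.3 and 76.9 CPM in shScr, 38.5 and 42.2 in shPkm1, and 24.3 and 22.6 in shPkm2. The groups did not overlap, and the level in shPkm2 was 0.285 of that in shScr. The log2 fold changes were -1.02 (SE 0.106, adjusted p 2.97e-06), -1.81 (SE 0.110, adjusted p 9.79e-09) and, between the hairpin groups, -0.78 (SE 0.111, adjusted p 5.31e-05), and all were called in all 16 other fits. Rrp9, the U3 snoRNP protein, was at 75.1 and 62.7 CPM in shScr, 36.2 and 44.0 in shPkm1, and 31.0 and 34.3 in shPkm2. It fell by 0.78 on the log2 scale in shPkm1 (SE 0.124, adjusted p 0.000124) and gave -1.08 in shPkm2 (SE 0.125, adjusted p 5.37e-06), also in every fit.

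Utp20 (chr10:88746607-88826814), a scaffold of the small subunit processome with a CACGTG after its start, behaved differently in the 2 hairpin groups. It was at 37.5 and 41.1 CPM in shScr, 33 and 36.3 in shPkm1, and 75.6 and 74.7 in shPkm2. Only the shPkm2 libraries were high, by 0.93 over shScr (SE 0.101, adjusted p 2.8e-06) and by 1.12 over shPkm1 (SE 0.102, adjusted p 9.24e-07), in every fit. Against shScr, shPkm1 gave -0.18 (adjusted p 0.143), and with a GC offset -0.35 (adjusted p 0.0126). The helicase gene Ddx10 was at 17.4 and 14.1, 20.3 and 23.0, and 25.8 and 23.7 CPM, which gave 0.46 (adjusted p 0.00829) and 0.66 (adjusted p 0.000616) against shScr. With a GC offset these were 0.08 and 0.12 and not called, and without replicate 2 of shPkm1 the former was 0.38 (adjusted p 0.0803). Wdr75, a subunit of the complex that links transcription of the precursor to its processing, had its highest values in shPkm1. The reported fit gave no call for it in shPkm2 against shPkm1 (-0.23, adjusted p 0.0902). Its levels were 30.4 and 27.4 CPM in shScr, 45.6 and 40.3 in shPkm1, and 35.7 and 37.6 in shPkm2. It rose by 0.57 (SE 0.110, adjusted p 0.000556) and 0.34 (adjusted p 0.0137), and with a GC offset the values were 0.22 (adjusted p 0.0620) and -0.15 (adjusted p 0.180); without replicate 2 of shPkm2 the latter was 0.31 (adjusted p 0.0877).

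Other small subunit genes moved less. Wdr43, a partner of Wdr75, was higher in shPkm2 by 0.32 (adjusted p 0.0195), with 61.7 and 50.2, 63.7 and 62.2, and 69.1 and 70.3 CPM in the 3 groups. That value was 0.18 (adjusted p 0.148) without replicate 2 of shScr, 0.31 to 0.33 and not called without either shPkm2 library, and -0.10 with a GC offset. In shPkm1 it was called higher with library totals (0.37, adjusted p 0.00807) and without replicate 1 of shScr (0.33, adjusted p 0.00914). Noc4l was higher in shPkm2 by 0.28 (adjusted p 0.0249), at 38.1 and 34.3, 34.6 and 36.2, and 43.2 and 44.9 CPM. The call was lost in DESeq2 (0.28, adjusted p 0.0673), without replicate 2 of shScr (0.21, adjusted p 0.106) and without either shPkm2 library (0.32 and 0.26), and its difference from shPkm1 (0.32, adjusted p 0.0184) was lost when any of the 4 hairpin libraries was left out (adjusted p 0.0626 to 0.128). On TPM it was called higher than shScr in shPkm1 as well (0.35, adjusted p 0.0158). Tsr1 was lower in shPkm2 (-0.40, adjusted p 0.00418), with 67.1 and 58.1, 54.7 and 51.3, and 48.1 and 47.0 CPM. On TPM that value was 0.06, and with library totals -0.07. It was called lower in shPkm1 as well with a GC offset (-0.36, adjusted p 0.00544). Heatr1, a processome scaffold, had 35.6 to 42.4 CPM over all 6 libraries, and Nat10, an RNA acetyltransferase, had 34.3 to 39.7. Neither passed the reported test in any comparison, with 95% intervals against shScr of -0.33 to 0.09 and -0.32 to 0.07 in shPkm1 and -0.27 to 0.14 and -0.35 to 0.04 in shPkm2. With library totals and on TPM Heatr1 was called higher in shPkm2 (0.26, adjusted p 0.0407, and 0.35, adjusted p 0.0368). Bms1, a GTPase of the processome, was at 68.5 and 70.0, 63.3 and 63.6, and 83.1 and 71.8 CPM. It was called between the hairpin groups (0.29, adjusted p 0.0281), and not on TPM (0.33, adjusted p 0.0556), without replicate 1 of shPkm2 (0.17, adjusted p 0.338) or without either shPkm1 library (0.27 and 0.29). Against shScr, shPkm2 gave 0.16, and 0.49 with library totals (adjusted p 0.00139) and 0.59 on TPM (adjusted p 0.00177). Ltv1, an assembly factor of late small subunits, was at 44.7 and 32.9, 31.7 and 31.3, and 34.6 and 42.8 CPM and was not called in the reported fit. In shPkm2 against shScr it gave 0.33 with library totals (adjusted p 0.0440) and 0.45 on TPM (adjusted p 0.00811), and in shPkm1 -0.35 with a GC offset (adjusted p 0.0464).

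In the large subunit pathway 6 of 11 genes were lower and 1 higher than in shScr in each hairpin group in the reported fit, beside 31.4% and 34.2% lower and 31.8% and 33.9% higher over all tested genes. Bop1 (chr15:76452988-76477249) forms the PeBoW complex, which matures the large-subunit RNA, with Pes1 and Wdr12. Bop1 was at 310 and 274 CPM in shScr, 185 and 211 in shPkm1, and 130 and 133 in shPkm2. The 3 groups did not overlap, and the level in shPkm2 was 0.451 of that in shScr. The log2 fold changes were -0.56 (SE 0.106, adjusted p 0.000493), -1.15 (SE 0.107, adjusted p 6.7e-07) and, between the hairpin groups, -0.59 (SE 0.106, adjusted p 0.000413). The fall in shPkm1 was -0.17 on TPM (adjusted p 0.151). Pes1 was at 194 and 180, 126 and 138, and 151 and 153 CPM, with the lowest values in shPkm1 (-0.50 against shScr, SE 0.0986, adjusted p 0.000673). Between the hairpin groups Pes1 was not called in the reported fit (0.2, adjusted p 0.102). Its fall in shPkm2 (-0.30, adjusted p 0.0159) turned to 0.03 with library totals and 0.14 on TPM, and without replicate 1 or 2 of shPkm2 it was -0.28 and -0.31 and not called (adjusted p 0.103 and 0.0770). The fall in shPkm1 was -0.13 on TPM and not called (adjusted p 0.259). Wdr12 was at 28.4 and 23.6, 24.2 and 24.9, and 21.1 and 21.9 CPM and was not called. It gave -0.27 in shPkm2 (adjusted p 0.0531), -0.40 without replicate 2 of shScr (adjusted p 0.00488) and -0.71 with a GC offset (adjusted p 0.000144), and in shPkm1 -0.38 with a GC offset (adjusted p 0.0101).

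Nop2 (chr6:125131883-125144753), an RNA cytosine methyltransferase with an upstream CACGTG, was at 192 and 169 CPM in shScr, 92.9 and 103 in shPkm1, and 92.7 and 97.2 in shPkm2. Both hairpin groups were at nearly the same low level, with -0.88 (SE 0.104, adjusted p 9.24e-06) and -0.92 (SE 0.104, adjusted p 4.05e-06) in every fit. Grwd1, a WD-repeat histone-binding protein that also has the motif, was at 44.7 and 34.6, 20.9 and 24.5, and 27.1 and 25.9 CPM, with -0.80 (SE 0.134, adjusted p 0.000176) and -0.58 (SE 0.132, adjusted p 0.0015). In shPkm2 that fall was not called on TPM (-0.11) or with library totals (-0.25, adjusted p 0.0873) or a GC offset (-0.28, adjusted p 0.0792). Ftsj3, a ribose methyltransferase, fell by 0.65 and 0.48 on the log2 scale, from 104 and 95 CPM to 60.4 and 66.4 in shPkm1 and 77.6 and 65.3 in shPkm2. On TPM these were -0.26 (adjusted p 0.0893) and -0.03 and not called, and with library totals the latter was -0.15 (adjusted p 0.233). In the reported fit the helicase gene Ddx18 was the single member of this pathway called higher than in shScr. It was at 64.7 and 51.1 CPM in shScr, 72.8 and 70.3 in shPkm1, and 76.9 and 79.3 in shPkm2. It gave 0.31 (adjusted p 0.0316) and 0.43 (adjusted p 0.00424), and in shPkm1 it was not called without replicate 2 of shScr (0.15, adjusted p 0.244) or without either shPkm1 library (0.30 and 0.34).

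Noc2l, a nucleolar protein that also inhibits histone acetyltransferases, was low in shPkm1 alone in the reported fit. It was at 135 and 131, 91.5 and 100, and 125 and 118 CPM, which gave -0.47 (adjusted p 0.000966) against shScr and 0.35 (adjusted p 0.0089) between the hairpin groups. On TPM the former was -0.08 and shPkm2 was called higher than shScr (0.32, adjusted p 0.0181), and the latter was not called without replicate 1 of shPkm1 (0.27) or of shPkm2 (0.30). In the reported fit Nop16 was low in shPkm2 alone, at 37.3 and 37.5, 33.9 and 37.9, and 26.7 and 31.4 CPM (-0.36 against shScr, adjusted p 0.012, and -0.30 against shPkm1, adjusted p 0.0373). Its fall against shScr was 0.09 on TPM, -0.04 (adjusted p 0.785) with library totals, -0.22 (adjusted p 0.0870) with a GC offset and -0.25 (adjusted p 0.165) without replicate 1 of shPkm2. On TPM shPkm1 was called higher than shScr (0.32, adjusted p 0.0351). The difference from shPkm1 was not called on TPM (-0.23, adjusted p 0.130), with library totals (-0.17, adjusted p 0.230) or in DESeq2 (-0.31, adjusted p 0.0769), and it was -0.20 (adjusted p 0.306) without that library and -0.22 (adjusted p 0.243) without replicate 2 of shPkm1. Rrp1b was at 36.1 and 34.1, 33.5 and 35.4, and 44.0 and 38.8 CPM. It was called between the hairpin groups (0.26, adjusted p 0.0497), a call at the threshold that was lost in 11 of the other fits. Against shScr, shPkm2 gave 0.24 (adjusted p 0.0610), and it was called higher with library totals (0.57, adjusted p 0.00048), on TPM (0.65, adjusted p 0.00105) and with a GC offset (0.37, adjusted p 0.0066). Noc3l was at 16.1 to 20.7 CPM in the 6 libraries and was not called in the reported fit. With a GC offset it was called lower in both hairpin groups (-0.52, adjusted p 0.00261, and -0.50, adjusted p 0.00246), and on TPM it was called higher in shPkm2 (0.38, adjusted p 0.0327).

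**Figure D3:**
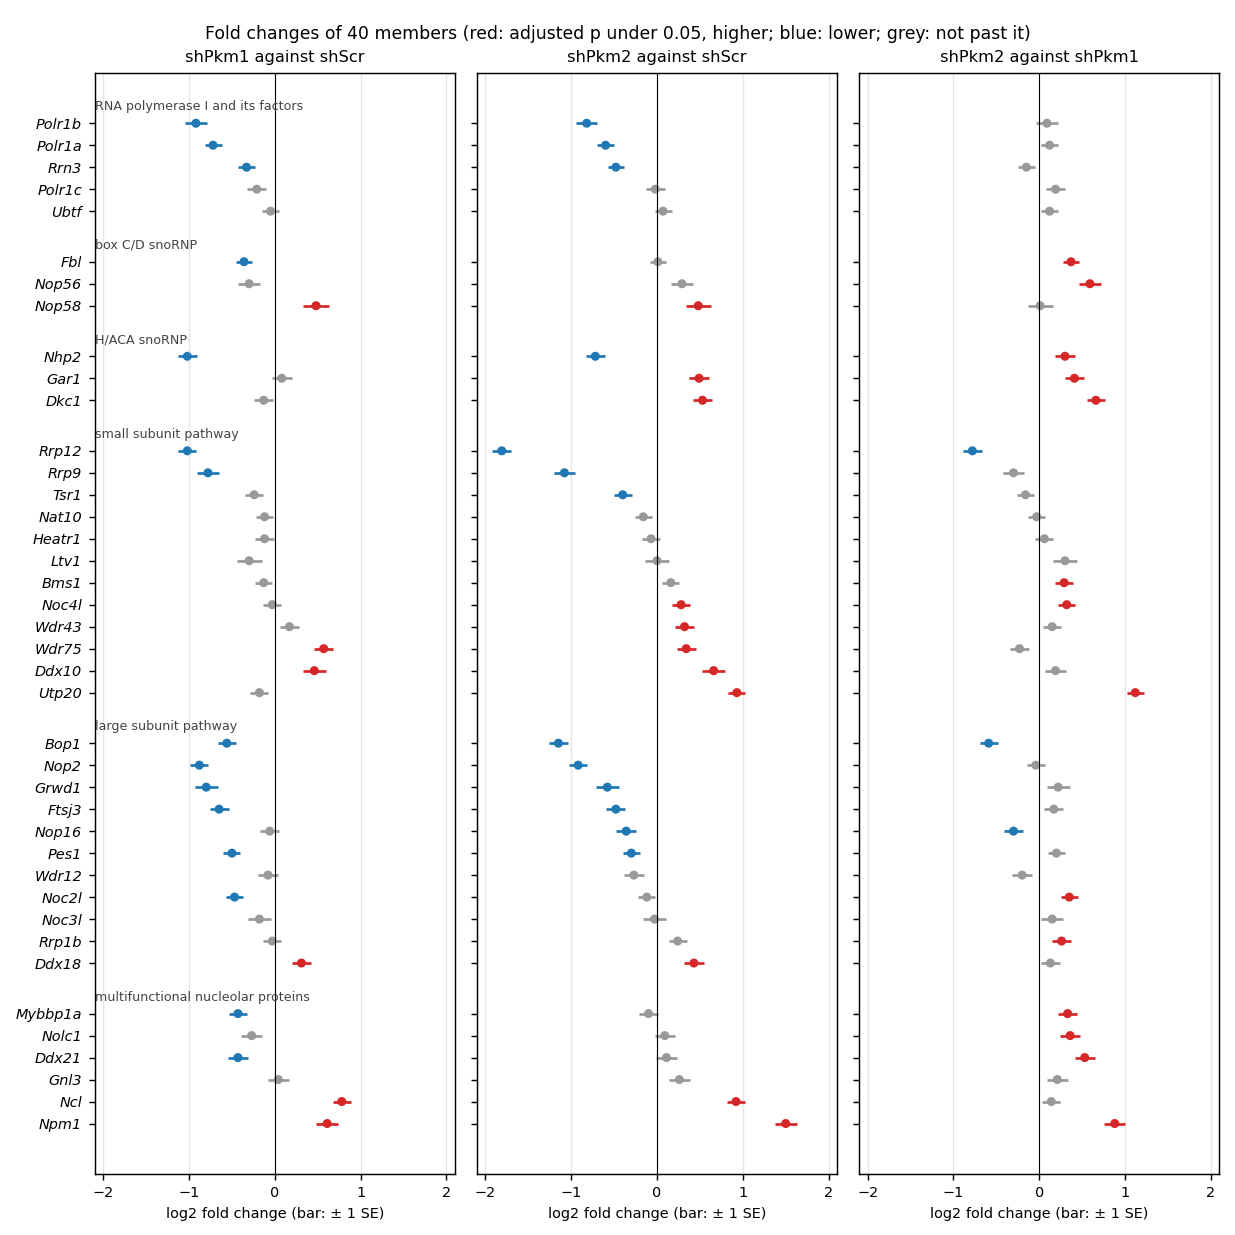
Log2 fold changes of the 40 members with bars of 1 standard error, in 3 panels, red for adjusted p under 0.05 and higher, blue for lower and grey for neither. Rrp12 lies at -1.81 and Npm1 at 1.5 in shPkm2 against shScr, and in shPkm2 against shPkm1 most coloured points are red (14 of 17).

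By pattern over the 3 comparisons of the reported fit, 8 members were lower in both hairpin groups than in shScr with no call between those groups (Ftsj3, Grwd1, Nop2, Pes1, Polr1a, Polr1b, Rrn3, Rrp9), and 5 were higher in both with none between them (Ddx10, Ddx18, Ncl, Nop58, Wdr75). In at least 1 other fit Ddx10, Ftsj3, Grwd1, Ncl, Pes1, Rrn3, Rrp9 and Wdr75 were called between the hairpin groups. Npm1 was higher at each step from shScr to shPkm1 to shPkm2, a pattern of 2.5% of members and 7.4% of all tested genes. Bop1 and Rrp12 were lower at each step, with 5.0% and 7.98% in the same order. Another 4 members were low in shPkm1 alone (Ddx21, Fbl, Mybbp1a, Noc2l) and 4 were high in shPkm2 alone (Dkc1, Gar1, Noc4l, Utp20), as judged by the direct test between the hairpin groups. In all, 8 members had no call in any comparison of the reported fit. Of all tested genes 13.3% were lower in both with no call between them, 10.3% higher in both with none, 4.3% low in shPkm1 alone, 8.69% high in shPkm2 alone and 14.9% without a call, where the members gave 20%, 12.5%, 10%, 10% and 20%. These shares come from comparisons with the same control libraries, and no difference between members and other genes was tested. Without replicate 2 of shScr, Ltv1, Noc3l, Nolc1, Nop56 and Tsr1 were also called lower in shPkm1. Without replicate 1 of shScr, Ddx21, Gnl3, Nop56 and Rrp1b were also called higher in shPkm2. The shares of all tested genes called in those directions stayed nearly the same in those fits.

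Summed over the 40 members, levels were 4240 and 3768 CPM in shScr, 3628 and 3771 in shPkm1, and 4633 and 4514 in shPkm2. In TPM the same sums were 2276 and 2232, 2813 and 2720, and 3953 and 3737, so that shPkm1 stood above shScr on that scale and not in CPM. Without Npm1 the CPM sums were 3830 and 3441, 3043 and 3231, and 3608 and 3462, so that shPkm2 then lay within the range of shScr. In TPM the sums without Npm1 were 1876 and 1870, 1995 and 2003, and 2440 and 2267, with both hairpin groups above shScr. The 6 multifunctional proteins summed to 2403 and 2339 CPM in shPkm2 against 1492 and 1318 in shScr, and the 4 of them other than Npm1 and Ncl to 743 and 691 against 749 and 675. In TPM those 4 summed to 382 and 339 in shPkm2 against 256 and 258 in shScr. The 11 large subunit genes summed to 1167 and 1046 CPM in shScr, 758 and 828 in shPkm1, and 791 and 782 in shPkm2. In TPM these sums were 610 and 615, 567 and 587, and 609 and 576. The 12 small subunit genes summed to 610 and 542, 492 and 504, and 544 and 542 CPM, so that rises and falls nearly offset each other in shPkm2 on that scale. In TPM they summed to 269 and 263, 297 and 291, and 324 and 316, with both hairpin groups above shScr. Per length, in TPM, Npm1 was the most abundant member in every group, with 381 ± 26.7 for shScr, 767 ± 71.2 for shPkm1 and 1491 ± 29.6 for shPkm2 (SD, n = 2). Bop1 followed in shScr with 165 ± 0.0919 TPM, then Fbl with 150 ± 9.26 and Nhp2 with 139 ± 8.76, and the last pair did not differ beyond their spread. Ncl took the place after Npm1 in shPkm1 with 177 ± 6.43 TPM, and in shPkm2 Fbl (206 ± 3.75) and Ncl (203 ± 15.1) were within their spread. Utp20, at 6.14 ± 0.905 TPM, was the least abundant in shScr, close to Noc3l (6.45 ± 0.495) and Ddx10 (6.48 ± 0.424). The median member was at 33.1 TPM in shScr against 11.8 for all tested genes. These are levels of RNA in bulk samples, where fewer cells of a kind and less RNA per cell cannot be told apart.

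Base composition moved with the fold changes. Transcript GC content (mean over a gene's GENCODE M21 transcripts) ran from 40.1% to 59.4% over the members. Across the 40 genes it correlated with the log2 fold change at r = -0.63 (Spearman rho -0.60) in shPkm1 against shScr and -0.59 (rho -0.57) in shPkm2 against shScr, and at -0.24 (rho -0.03) between the hairpin groups. These genes are not independent replicates and share the same libraries, so no p is given. Over 12484 tested genes with a value r was -0.16, -0.27 and -0.16 (rho -0.26, -0.35 and -0.2). In the quintile of genes with the lowest GC content (33.7% to 45.4%) the median of all genes was 0.39 in shPkm1 and 0.54 in shPkm2, and of its 9 members 4 and 6 were higher and none lower, where 50.5% and 58.2% of all genes in that quintile were called higher. In the quintile with the highest GC content (56.2% to 72.8%) the medians were -0.22 and -0.36, and of its 4 members 3 and 3 were lower and, in shPkm2, 1 (Noc4l) higher, where 42.9% and 50.8% of all genes were called lower. With an offset for GC content, a fit added after the data had been seen, the members were 2 higher and 21 lower in shPkm1 and 9 higher and 14 lower in shPkm2, where all tested genes gave 29% and 32.7%, and 30.5% and 34.8%. Of the members with large changes, Rrp12, Rrp9, Nop2, Nhp2, Polr1b, Ncl and the rises of Npm1 and Utp20 in shPkm2 were still called. The part of base composition in the other calls was not tested further.

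**Figure D4:**
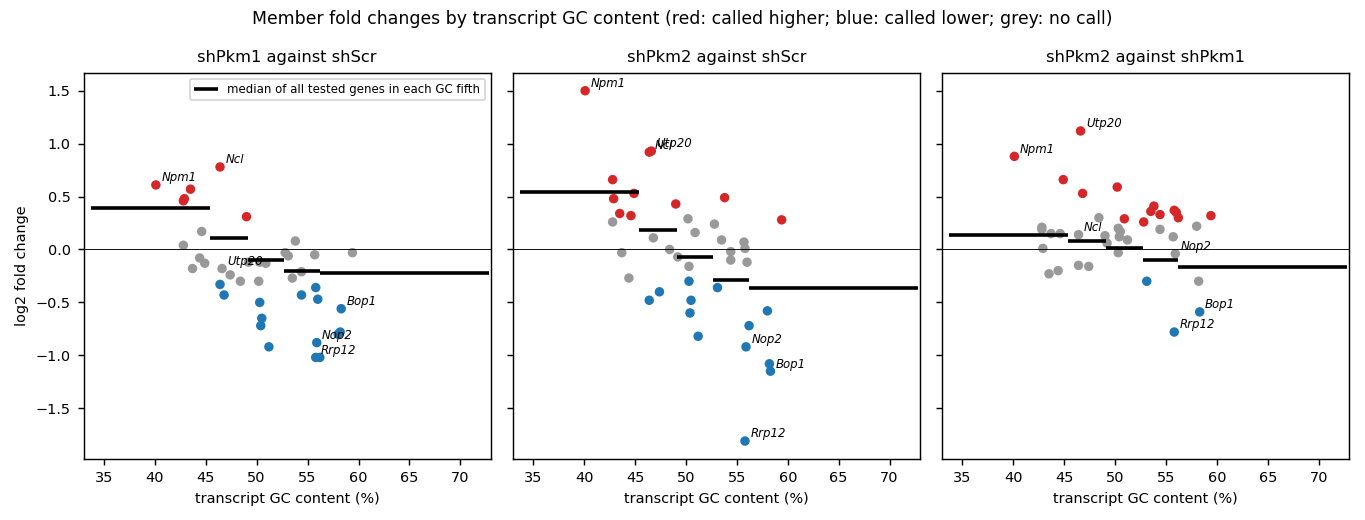
Log2 fold change of each member (points, coloured by call) against transcript GC content in percent, with black lines at the median of all tested genes in each quintile of GC content. In both comparisons with shScr the members with low GC content lie mostly above 0 and those with high GC content below it, and Rrp12 and Npm1 in shPkm2 lie well outside the medians of their quintiles.

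A wider list held 109 other genes with known roles in ribosome biogenesis. Of these 13 were higher and 51 lower in shPkm1 (11.9% and 46.8%, median -0.24), 21 higher and 38 lower in shPkm2 (19.3% and 34.9%, median -0.08), and 34 higher and 10 lower between the hairpin groups (31.2% and 9.17%, median 0.19). All tested genes gave 31.8% and 31.4%, 33.9% and 34.2%, and 25.7% and 27.3% in the same order. On TPM the counts in shPkm1 were 32 higher and 11 lower and in shPkm2 61 higher and 6 lower, where all tested genes gave 49% and 13.7%, and 52.4% and 16.8%. Leaving out replicate 1 of shPkm1 left fewer of them lower in shPkm1, and fewer of all tested genes. Leaving out replicate 1 of shScr left more of them higher in shPkm2, while the share over all tested genes stayed nearly the same. The helicase gene Ddx24, of the large subunit list, had the largest fall in both hairpin groups, from 452 and 405 CPM to 150 and 165 in shPkm1 and 172 and 157 in shPkm2 (-1.44, adjusted p 1.46e-07, and -1.38, adjusted p 1.07e-07). Taf1c, a subunit of the SL1 factor that recruits polymerase I, followed in shPkm1 (-1.18, SE 0.148, adjusted p 1.54e-05), and Polr1g, a polymerase I subunit, in shPkm2 (-1.16, SE 0.141, adjusted p 8.56e-06). Taf1d, another SL1 subunit, went the other way, with 14.6 and 13.5 CPM in shScr, 27.1 and 19.0 in shPkm1, and 27.1 and 26.1 in shPkm2 (0.71, adjusted p 0.0014, and 0.92, adjusted p 0.000137). With a GC offset its values were 0.18 and 0.23 and not called.

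Esf1, of the small subunit list, rose by 0.74 in shPkm1 (SE 0.138, adjusted p 0.000462), and was at 0.14 with a GC offset (adjusted p 0.365). Rpf1, a large subunit factor, had the largest rise in shPkm2, from 19.9 and 12.9 CPM to 35.9 and 37.7 (1.17, SE 0.156, adjusted p 1.91e-05), and it also exceeded shPkm1 (0.69, SE 0.150, adjusted p 0.00177). The helicase gene Ddx52 gave the largest difference between the hairpin groups, at 29.2 and 25.5, 28.5 and 26.3, and 45.0 and 43.9 CPM (0.70, SE 0.107, adjusted p 0.000108). In the other direction Nifk and Bysl were lower in shPkm2 than in shPkm1, each at -0.54 (adjusted p 0.000706 and 0.00121).

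Beside these results the summed proliferation markers rose and the summed muscle markers fell from shScr to shPkm1 to shPkm2. Of the members only Npm1 was called higher at each of these steps, and only Bop1 and Rrp12 lower. These are 2.5% and 5.0% of members, beside 7.4% and 7.98% of all tested genes. All 10 proliferation markers were higher in shPkm2 than in shScr (median 2.25) and than in shPkm1 (median 1.40), and 8 of 10 were higher in shPkm1 than in shScr (median 0.82). The median of the muscle markers was -1.17 in shPkm1 and -6.35 in shPkm2 against shScr. Median member changes were -0.20 and -0.01 in the same comparisons. The part of the cells' state of differentiation or division in the member values was not tested.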

How the data were processed

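The deposited table has 1 row for each of 57920 RefSeq transcripts, with estimated counts, FPKM and TPM per library, per the file headers. The authors' estimated counts are mostly not whole: 16.5% to 17.7% of the values above 0 in a library are. The authors' TPM and FPKM values are scaled to transcript length; the deposited FPKM values were not used. HISAT, StringTie, Bowtie, RSEM, DESeq2 and mm10 are named in the submitters' processing notes, and their versions and roles, read length and strandedness are not given in the sources used here, so overlapping and antisense genes cannot be separated. A further 9 columns of group means were not used.

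Estimated counts were summed per NCBI gene (17558 genes, 17445 with a symbol in RefSeq GRCm38.p6) and rounded. A filter on low counts (filterByExpr, count of 10, total of 15) kept 12643 genes. Libraries were scaled by trimmed means of M values, and edgeR 4.0.16 (R 4.3.3) was fitted to all 6 libraries with 1 coefficient per group. Contrasts were tested two-sided with the quasi-likelihood F-test and Benjamini-Hochberg adjustment over all genes (threshold 0.05). The standard error was derived from each fold change and its F statistic, and 95% intervals span 1.96 standard errors to either side. The biological coefficient of variation was 0.0851, and each count total covers counting error only. Groups of 2 allow no permutation p under 0.333, so only the model was used.

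Alternatives were DESeq2 size factors, library totals, DESeq2 1.42.0, no low-count filter, a stricter filter (mean count of 50), fits without the uninvolved group, a replicate block, each library left out in turn, and limma 3.58.1 on log2(TPM + 1) and log2(TPM + 0.1). A GC offset was chosen after seeing the data. A fold change on a log2(TPM + pseudocount) scale understates the change of low genes. The fit was also run on simulated counts with few known changes, in a single group, and the same spread in every library. Those settings differ from these data, so that run cannot bear on the choice of scaling or on unequal spread. The members, roles, marker lists and the list of 109 other genes were chosen with earlier results of these data known. All members may be named. Of the other genes, those named have the 2 largest rises or falls in a comparison, and Pkm, Myc and Mycl were always reported.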

Additional observations from a re-analysis of the deposited data

How the results depend on the processing

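The counts moved with the scaling, the GC offset and the libraries used. With library totals the members gave a median of -0.00 in shPkm1 against shScr. In shPkm2 against shScr they gave 22 higher, 7 lower and a median of 0.32, and in shPkm2 against shPkm1 23 higher and a median of 0.31. Over all tested genes library totals gave 40.5% higher and 21.0% lower in shPkm1 and 48.2% and 21.4% in shPkm2 against shScr. Between the hairpin groups all tested genes gave 33.9% and 21.3%, with a median of 0.14. The 109 other pathway genes gave 22 higher and 23 lower, 53 higher and 16 lower, and 58 higher and 4 lower in the same order. The share of these genes lower in shPkm1 was then near that of all tested genes. On log2(TPM + 1) the members gave 13 higher, 7 lower and 0.18, then 25 higher, 6 lower and 0.44, then a median of 0.23, and the other genes gave 32 higher and 11 lower, then 61 higher and 6 lower. On log2(TPM + 0.1) the counts were the same with medians of 0.19, 0.45 and 0.24, and 6 of the other genes were lower between the hairpin groups (21.9% of all tested genes). With only the groups compared in the fit, 5 members were lower in shPkm2 than in shPkm1 (31.8% of all tested genes). With a GC offset 2 members and 5 other genes were higher in shPkm1, 12 other genes were higher in shPkm2, and between the hairpin groups 7 members were lower with a median of 0.11. With that offset 29.0% of all tested genes were higher in shPkm1 and 30.5% in shPkm2. Between the hairpin groups 28.9% of them were lower, with a median of -0.01.

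Leaving out each library in turn gave, for members in shPkm1 against shScr, 3 to 7 higher. Between the hairpin groups it gave 6 to 17 higher, 2 to 5 lower and a median of 0.12 to 0.22. For the other genes it gave 8 to 18 higher and 30 to 61 lower in shPkm1, 15 to 33 higher in shPkm2, and 18 to 50 higher and 4 to 11 lower between the hairpin groups. The fewest higher members came without replicate 2 of shPkm1 in shPkm1 against shScr (3) and without replicate 1 of shPkm1 or of shPkm2 between the hairpin groups (6 each). The lone library of an arm is then assumed to vary like the other groups. The groups did not vary alike, as the shScr libraries differed from each other more than those of either hairpin group. Shares of all tested genes called moved in these fits as well.

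Reversed directions were found on both TPM scales for Rrn3 (0.06) and Fbl (0.03) in shPkm1, and for Tsr1 (0.06), Nop16 (0.09), Pes1 (0.14) and Nifk (0.14) in shPkm2. With library totals Pes1 (0.03) and Nifk (0.01) reversed in shPkm2, and with a GC offset Nop58 (-0.05), Wdr43 (-0.10) and Wdr75 (-0.15) did. The TPM scales moved all tested genes up by a median of 0.37 to 0.39 in shPkm1 and 0.44 to 0.45 in shPkm2, and library totals by 0.32 in shPkm2. The cause of the reversals with a GC offset was not tested. Same-numbered libraries did not deviate together (r -0.0256, 0.0418 and 0.0527), so they share only a number. With a replicate block the members gave 6, 13 and 13 higher and 15, 13 and 3 lower in the 3 comparisons. All tested genes gave 31.6%, 33.8% and 25.6% higher and 31.1%, 34.0% and 27.3% lower with that block. The DESeq2 size factors, DESeq2 and both count filters moved no count of members or other genes by more than 1.5 times. The lowest count of a member in a library was 237, and each group had 2 libraries, which limits the precision of every value.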
